A study of Homo sapiens with 6 samples.

Results

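The transcripts described here are those of 34 amino acid transporter genes, chosen by symbol from 9 carrier groups and matched through their Ensembl identifiers in GENCODE 44. All 34 are among the 19977 genes counted. They were measured in NCRM-1, a human induced pluripotent stem cell line of wild type genotype, grown as aggregates for 4 days in vertical wheel bioreactors. The 3 control libraries came from E8, a defined medium for pluripotent cells (E8 control), and the other 3 from E8 with polyethylene glycol at 10 mg/ml and heparin sodium salt at 0.1 µg/ml (PEG and HS, the treated libraries). All 6 share the cell line, its dissociation with TrypLE, the ROCK inhibitor given at seeding and a replacement of 50% of the medium on day 2. The treatment text of the labels describes additives for the controls too, so the treatment named for each library was followed. By the labels each medium seems to have had 1 bioreactor. The vessel then cannot be told apart from the medium, and p-values measure only the spread between these samples, which may be technical.

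Amino acids hardly cross a membrane by diffusion, and carriers of the solute carrier (SLC) families move them. Sodium-driven carriers concentrate glutamine, glutamate and small neutral amino acids in the cell, exchangers then trade these for leucine, cystine or cationic amino acids, and uniporters let amino acids equilibrate. In lysosomes and mitochondria other members pass amino acids to nutrient sensing by mTORC1 and to the malate-aspartate shuttle. Pluripotent stem cells are known for a high demand for glutamine and methionine, and E8 supplies amino acids through its basal medium.

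Depth was 26991279 to 36185138 counts per library, and the 34 transporters took 0.258% to 0.264% of the counts in E8 control and 0.264% to 0.270% in PEG and HS. All 8 pluripotent markers checked lay above 100 CPM (counts divided by the TMM-scaled library size) on average. Their summed levels were 7723 to 7987 CPM in the treated libraries and 7609 to 7773 CPM in the controls. These sums hold opposite changes, with 3 called higher (37.5%) and 3 lower (37.5%). Of all genes with at least 100 CPM, 22.6% were called higher and 17.7% lower. POU5F1, NANOG and L1TD1 were higher (log2 fold change 0.23, 0.55 and 0.36). SOX2 (-0.59, 273 ± 3.92 against 412 ± 11.8 CPM, SD, n = 3), LIN28A (-0.30) and SALL4 (-0.25) were lower. Markers of other cell types were not equal between media. Of 6 neural markers 5 were called lower in PEG and HS, with a summed level of 559 to 595 CPM against 699 to 720 CPM in the controls. Of 4 trophectoderm and amnion markers tested 2 were lower (50.0%), with CDX2 near 0. Summed over 5, the level was 0.561 to 1.48 CPM in the treated libraries against 6.51 to 6.86 CPM. The fall of this sum was mostly that of TFAP2A (0.603 ± 0.269 against 6.00 ± 0.230 CPM). The other lower gene, HAND1, had 16 counts in all, and GATA3 and ISL1 did not pass. Of the mesoderm markers 1 of 5 was lower and of the endoderm markers 0 of 3 tested were called by edgeR (1 had an unadjusted p under 0.05), with SOX17 near 0. Their part in the transporter results was not tested. In bulk RNA, fewer cells of a type and less RNA per cell cannot be told apart.

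All 34 transporters passed the filter of 10 counts over the 6 libraries, and the least counted, SLC38A3, had 243. In a quasi-likelihood test (edgeR), adjusted by Benjamini-Hochberg over all 16505 genes tested, 9 had a higher and 5 a lower level under PEG and HS (adjusted p under 0.05), and 20 did not pass. Their differences are given as log2FC ± SE, where a positive value is a higher level in the treated libraries. The share called was 41.2%, beside 25.3% of all genes tested and 32.4% of the 10069 genes with at least 10 CPM, a level that 26 of the 34 reached. By direction, 26.5% of the transporters were called higher beside 12.2% of all genes, and 14.7% lower beside 13.1%. Among the genes with at least 10 CPM 17.3% were called higher and 15.2% lower. The transporter shares count all 34 genes, while all 5 lower and, except SLC38A6, all 9 higher ones had at least 10 CPM. These shares are therefore not matched in level with that background. In 19 of the 34 (12 higher, 7 lower) the 3 treated libraries lay all above or all below the 3 controls, beside 39.3% of all genes, 19.5% higher and 19.8% lower. The differences were small. Their median absolute log2 fold change among those called was 0.22, beside 0.25 for all genes called, and the median log2 fold change over all 34 was 0.033, beside 0.0031 for all genes tested. Of the genes called, only SLC16A10 changed by over 1.5-fold, and no transporter changed by over 2-fold. Without PEG and HS replicate 1, 5 transporters were called higher in place of 9, and over all genes 1453 were called higher in place of 2016.

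**Figure D1:**
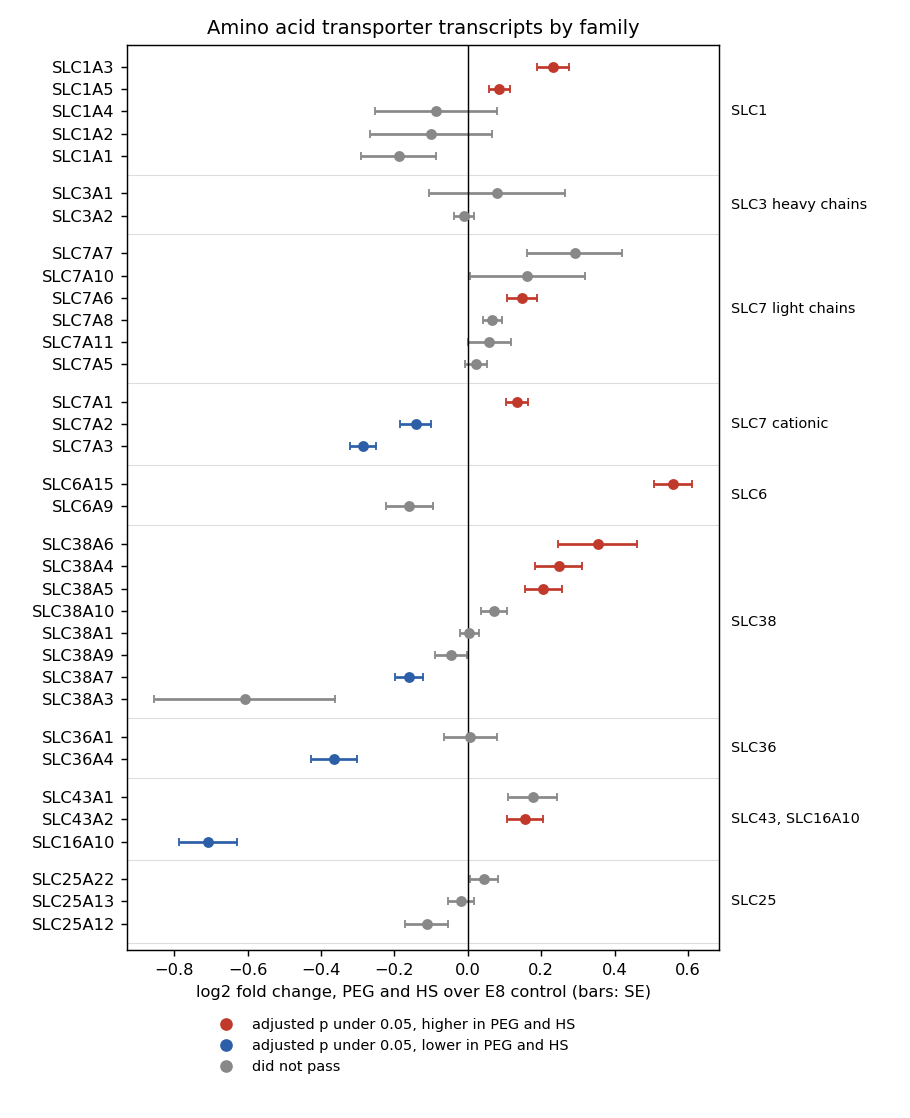
Each point is the log2 fold change of 1 transporter transcript, PEG and HS over E8 control, with its standard error as the bar, grouped by carrier family. Red points were called higher (9 genes), blue points lower (5 genes) and grey points did not pass (20 genes). SLC6A15 at 0.56 lies farthest to the right and SLC16A10 at -0.71 farthest to the left.

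Several transporter genes are known targets of the amino acid response, in which the factor ATF4 binds C/EBP-ATF response elements, and the sequences that hold such letters near a gene start are shown here. RefSeq windows of 300 bases around the gene starts (250 before, 50 after, GRCh38.p14) were matched for 27 of the 34 members and searched on both strands for the letters TGATGNAAN. They were found in 4 of the 27 windows (14.8%), beside 2.54% of the 15321 windows of genes in the files. The stretches below hold up to 10 bases on each side of the match, which is in capitals, and read 5′ to 3′ along the gene's strand. That of SLC1A3, chr5:36596358-36596386 on the plus strand, has its match starting 220 bases before the gene start. That of SLC38A1, chr12:46266502-46266530 on the minus strand, starts its match 4 bases before the RefSeq start used. This start lies inside the annotated span of the gene (46183063 to 46270017). The match of SLC7A1, within chr13:29595663-29595691 on the minus strand, begins at base 8 of the transcript. The match of SLC3A2, within chr11:62881725-62881748 on the plus strand, begins at base 37 after the RefSeq start used and reads on the opposite strand. That start too lies inside the annotated span of its gene (62856004 to 62888880).
SLC1A3: aggaaatgacTGATGCAAAgcagggttaa
SLC7A1: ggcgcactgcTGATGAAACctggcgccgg
SLC38A1: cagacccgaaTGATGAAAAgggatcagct
SLC3A2: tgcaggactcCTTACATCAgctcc
Of these 4, SLC1A3 and SLC7A1 were called higher in PEG and HS, and SLC38A1 and SLC3A2 overlapped between media. A match describes letters in the window and not a bound site. Windows of SLC1A2, SLC3A1, SLC6A15, SLC7A2, SLC7A3, SLC7A11 and SLC38A3 were not searched.

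A few carriers held most of the counts. SLC38A1, SLC7A8, SLC1A5, SLC7A5 and SLC3A2 together took 60.5% of the counts on the 34 genes. Per kilobase of the union of annotated exons, SLC1A5 was the highest in E8 control (93.3 CPM per kb), followed by SLC7A8 (58.2), SLC7A3 (53.5), SLC38A1 (47.8), SLC7A5 (47.6) and SLC3A2 (33.7). SLC38A1 and SLC7A5 overlapped over the 3 libraries and so do not differ beyond their spread on this length, whereas the other neighbours among these 6 did not overlap. Next came the mitochondrial SLC25A13 (30.6 CPM per kb) and the cationic carrier SLC7A1 (23.2). The lowest level was that of SLC1A2, at 0.108 CPM per kb. In PEG and HS SLC7A3 stood at rank 5 in place of rank 3, with 43.96 CPM per kb, below SLC7A5 (48.3) and SLC38A1 (47.9). Dividing by the longest transcript instead kept 9 of the 10 highest genes but put SLC3A2 at 75.8 CPM per kb, at rank 3, since its exon union (6.39 kb) is much longer than its longest transcript (2.84 kb). On that length SLC38A1 (59.2 CPM per kb in E8 control) and SLC7A5 (49.8) did not overlap. SLC7A3 (54.2) then stood between them at rank 5, and at rank 6 in PEG and HS.

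**Figure D2:**
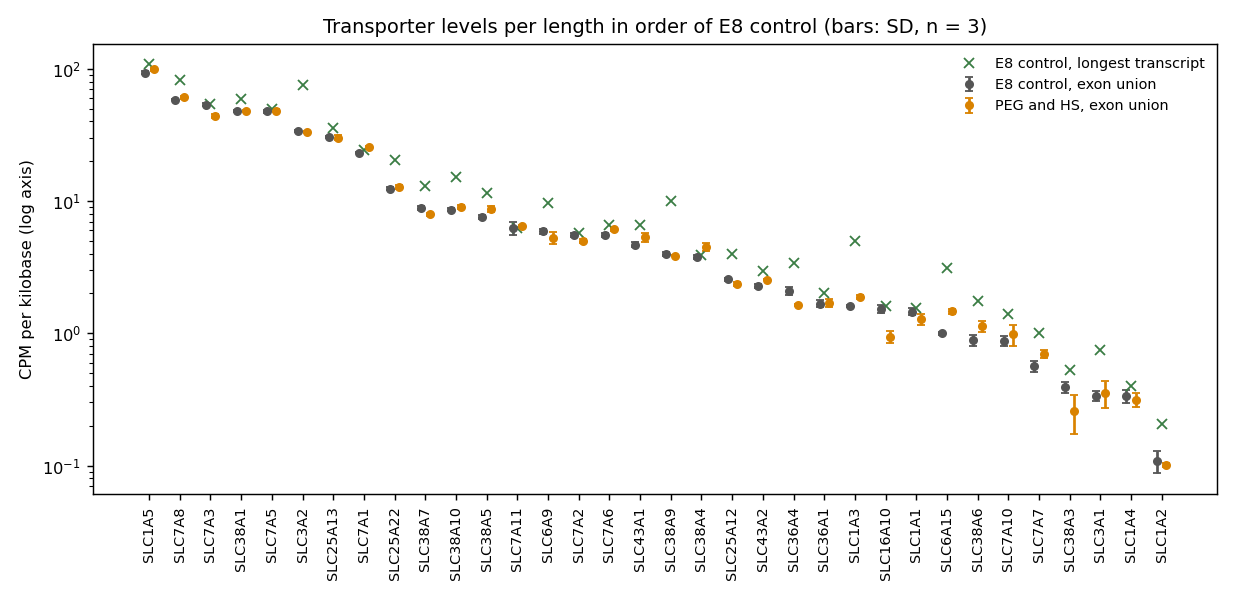
Levels of the 34 transporters in CPM per kilobase on a log axis, in the order of E8 control. Circles are means of 3 libraries divided by the exon union length, with the SD as the bar (grey for E8 control, orange for PEG and HS), and crosses are E8 control means divided by the longest transcript. Levels run from 93.3 to 0.108 CPM per kb, and the crosses lie highest above the circles for genes with much alternative exon sequence, such as SLC6A15, SLC1A3 and SLC38A9.

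The largest rise was in SLC6A15 (ENSG00000072041, chromosome 12, 84859491 to 84913629 of GRCh38), which encodes a sodium-dependent carrier of branched-chain amino acids and proline. Its libraries read 29.7, 28.3 and 30.8 CPM in the treated libraries and 20.5, 19.5 and 20.5 CPM in the controls. All 3 treated libraries were higher than all 3 controls, and the distance between the groups was several times the spread within them (29.6 ± 1.25 against 20.2 ± 0.609 CPM, SD, n = 3). The difference was 1.47-fold (log2FC 0.56 ± 0.052, adjusted p = 1.05e-06, edgeR). The other member of its family, SLC6A9, a sodium and chloride dependent carrier of glycine, stood at 27.3, 30.7 and 25.3 CPM in the treated libraries and 29.7, 32.5 and 30.4 CPM in the controls. These libraries overlapped, and the test was not passed (log2FC -0.16 ± 0.064, adjusted p = 0.0814). Without PEG and HS replicate 2, the highest of its group, SLC6A9 was called lower (-0.23, adjusted p = 0.0113).

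The largest fall was in SLC16A10 (ENSG00000112394, chromosome 6, 111087503 to 111231194), a facilitative carrier of tryptophan, tyrosine and phenylalanine. It was measured at 11.2, 9.27 and 11.2 CPM in the treated libraries and at 15.9, 17.4 and 18.4 CPM in the controls. No treated library reached the lowest control, and the level was 1.63-fold lower in PEG and HS (log2FC -0.71 ± 0.080, adjusted p = 8.24e-06, edgeR). The uniporters for branched-chain amino acids, phenylalanine and methionine did not fall with it. SLC43A2 had 27.0, 26.9 and 27.1 CPM in the treated libraries against 23.8, 25.3 and 23.6 CPM (log2FC 0.16 ± 0.049, adjusted p = 0.0289). SLC43A1 had 17.6 to 20.5 CPM against 15.7 to 17.0 CPM, without overlap but short of the threshold (log2FC 0.18 ± 0.066, adjusted p = 0.0651). The SLC43A2 call rests on its full set of libraries, since its adjusted p rose to between 0.0574 and 0.0969 when PEG and HS replicate 1, 2 or 3 or E8 control replicate 1 or 3 was left out, and SLC43A1 passed without PEG and HS replicate 3 (adjusted p = 0.0435).

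The 3 cationic carriers, which bring in arginine, lysine and ornithine, each changed, and not in 1 direction. SLC7A1 (ENSG00000139514, chromosome 13, 29509414 to 29595688), the widely expressed member, had 189, 195 and 202 CPM in the treated libraries and 176.6, 177.4 and 180.4 CPM in the controls (log2FC 0.13 ± 0.030, adjusted p = 0.00419, edgeR). SLC7A3 (ENSG00000165349, chromosome X, 70925579 to 70931125) had 95.3, 103 and 100.4 CPM in the treated libraries and 117.6, 124 and 122 CPM in the controls (log2FC -0.28 ± 0.035, adjusted p = 2.15e-05). In both genes the groups were apart, the first upwards and the second downwards. The CPM ratio of SLC7A3 to SLC7A1 was therefore 0.496 to 0.531 in the treated libraries and 0.666 to 0.698 in the controls. SLC7A2 was also lower, by less, with 38.4 to 41.0 against 41.8 to 44.9 CPM (log2FC -0.14 ± 0.043, adjusted p = 0.0243), and lost its call without PEG and HS replicate 1 or 3 or E8 control replicate 2 or 3 (adjusted p 0.0673 to 0.0961). Summed over the 3 genes, the level was 324 to 341 CPM in the treated libraries and 336 to 348 CPM in the controls, and these ranges overlapped.

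**Figure D3:**
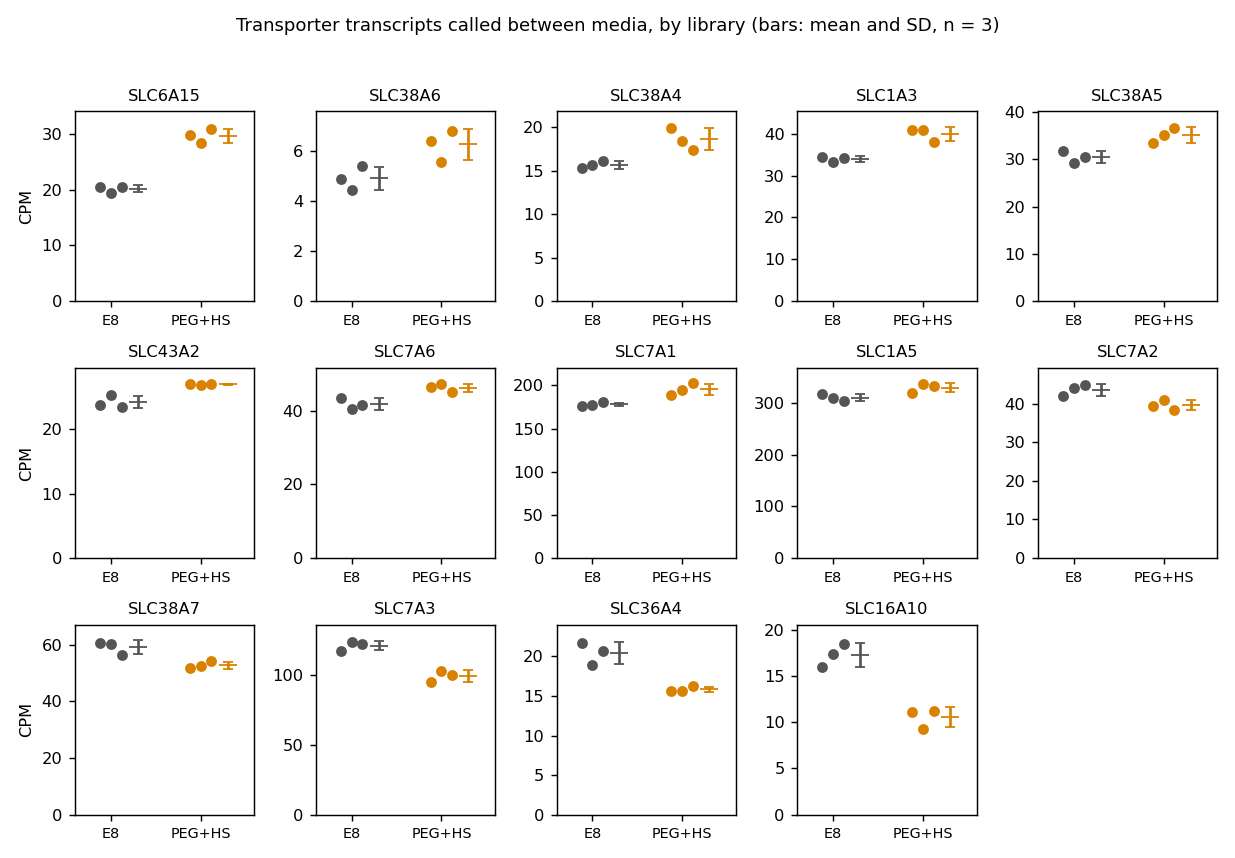
CPM of the 14 transporters called between media, 1 panel a gene, from the largest rise (SLC6A15) to the largest fall (SLC16A10), with the vertical axis starting at 0. Points are single libraries (3 in E8 control in grey, 3 in PEG and HS in orange), and the bars beside them are the mean and SD. In each of the 14 genes the 2 groups of points do not overlap, and in most the gap is small beside the level itself.

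Of the 8 carriers of the SLC38 family, 3 were called higher (37.5%) and 1 lower (12.5%), beside 12.2% and 13.1% of all genes tested. SLC38A5 (ENSG00000017483, chromosome X, 48458537 to 48470260), which moves glutamine, asparagine and histidine, had 33.4, 35.2 and 36.7 CPM in the treated libraries and 31.8, 29.2 and 30.4 CPM in the controls (log2FC 0.21 ± 0.050, adjusted p = 0.0066, edgeR). For SLC38A4, a carrier of small neutral amino acids, the libraries read 19.9, 18.4 and 17.4 CPM against 15.3, 15.6 and 16.1 CPM (log2FC 0.25 ± 0.063, adjusted p = 0.00928). PEG and HS replicate 1 was its highest library, and without it the adjusted p was 0.0593. SLC38A6 had 5.56 to 6.80 CPM against 4.43 to 5.38 CPM (log2FC 0.35 ± 0.11, adjusted p = 0.026) and lost its call without PEG and HS replicate 1 or 3 or E8 control replicate 1 or 2 (adjusted p 0.0630 to 0.114). All 3 had higher values in each treated library than in each control.

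SLC38A7 (ENSG00000103042, chromosome 16, 58665109 to 58684770), which exports glutamine and asparagine from lysosomes, was lower, at 51.8, 52.3 and 54.1 CPM in the treated libraries and 60.7, 60.1 and 56.3 CPM in the controls (log2FC -0.16 ± 0.039, adjusted p = 0.00707). SLC38A9, a lysosomal protein that senses arginine for mTORC1, had 33.7 to 34.4 CPM and 33.8 to 36.7 CPM, which overlapped (log2FC -0.046 ± 0.045, adjusted p = 0.501). SLC38A1, a major sodium-driven carrier of glutamine and the most counted of the 34 genes, had 488, 471 and 481 CPM in the treated libraries and 480, 469 and 488 CPM in the controls. The groups covered the same range, and the log2 fold change of 0.0036 was smaller than its SE of 0.026 (adjusted p = 0.942). SLC38A10 overlapped too (log2FC 0.071 ± 0.036, adjusted p = 0.175). SLC38A3, at 0.798 to 1.42 CPM against 1.45 to 1.71 CPM, had the second largest negative estimate of the set but few counts (log2FC -0.61 ± 0.25, adjusted p = 0.0873), and passed without PEG and HS replicate 2, its highest treated library (-0.90, adjusted p = 0.02).

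Of the proton-coupled carriers, SLC36A4 (ENSG00000180773, chromosome 11, 93144174 to 93197991), which has a high affinity for proline and tryptophan, fell from 21.7, 18.9 and 20.7 CPM in the controls to 15.7, 15.6 and 16.3 CPM in the treated libraries (log2FC -0.37 ± 0.062, adjusted p = 0.000448, edgeR). The groups were clearly apart. SLC36A1, which exports small neutral amino acids from lysosomes, stood at 11.3 to 12.7 CPM against 11.1 to 12.6 CPM, with overlap (log2FC 0.0066 ± 0.073, adjusted p = 0.963).

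In the SLC1 family, SLC1A3 (ENSG00000079215, chromosome 5, 36596588 to 36688334), a sodium-driven glutamate and aspartate carrier best known from glia, was higher, with 40.9, 40.8 and 38.1 CPM in the treated libraries and 34.5, 33.2 and 34.3 CPM in the controls (log2FC 0.23 ± 0.044, adjusted p = 0.00112, edgeR). The other glutamate carriers had fewer counts and overlapped between media. SLC1A1 was at 4.72 to 5.63 against 5.40 to 6.08 CPM (adjusted p = 0.209), and SLC1A2, the main glutamate carrier of astrocytes, at 2.25 to 2.37 against 2.08 to 2.99 CPM (adjusted p = 0.719). SLC1A5, a sodium-dependent exchanger of glutamine and other neutral amino acids, had 320, 337 and 333 CPM in the treated libraries and 318, 310 and 304 CPM in the controls. Its groups barely separated, and the difference of 6.09% was the smallest called (log2FC 0.085 ± 0.029, adjusted p = 0.0414). It lost its call without PEG and HS replicate 2 or 3 or E8 control replicate 2 or 3 (adjusted p 0.0941 to 0.143). SLC1A4, which exchanges alanine, serine and cysteine, was at 2.02 to 2.51 against 2.15 to 2.63 CPM (adjusted p = 0.755).

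Exchangers of the SLC7 light chain type reach the cell surface bound to a heavy chain, here mostly SLC3A2 (CD98), and trade 1 amino acid for another. SLC3A2 (ENSG00000168003, chromosome 11, 62856004 to 62888880) had 210, 216 and 215 CPM in the treated libraries and 217, 217 and 212 CPM in the controls, with overlap (log2FC -0.011 ± 0.027, adjusted p = 0.815, edgeR). SLC7A5 (ENSG00000103257, chromosome 16, 87830023 to 87869507), the leucine exchanger, had 224, 236 and 231 CPM against 233, 223 and 225 CPM (log2FC 0.021 ± 0.030, adjusted p = 0.656). Both genes were therefore well counted and showed no separation of the media. SLC7A8, which exchanges a like range of neutral amino acids and was the most counted light chain, had 355, 373 and 368 CPM against 351, 349 and 346 CPM. Its treated libraries were all above the controls, by 4.72%, and it did not pass (log2FC 0.067 ± 0.027, adjusted p = 0.0825).

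SLC7A11, the cystine and glutamate exchanger, had 63.1, 61.7 and 62.0 CPM in the treated libraries and 63.8, 52.1 and 63.6 CPM in the controls. E8 control replicate 2 lay below the other 5 libraries, and with it left out the log2 fold change went from 0.059 (SE 0.059, adjusted p = 0.524) to -0.035 (adjusted p = 0.59). SLC7A6, which exchanges cationic for neutral amino acids, was the only light chain called, at 46.5, 47.3 and 45.2 CPM against 43.5, 40.4 and 41.5 CPM (log2FC 0.15 ± 0.041, adjusted p = 0.0151). Its adjusted p was 0.0541, 0.0563 and 0.0737 without PEG and HS replicate 1, without PEG and HS replicate 2 and without E8 control replicate 2. It also shares 44.4% of its exon bases with SLC7A6OS on the other strand, which was not called (log2 fold change -0.020, adjusted p = 0.802), and whether the counting used strand is not given in the sources used here. SLC7A7 did not overlap between media but was low, at 3.53 to 4.03 against 2.71 to 3.27 CPM (log2FC 0.29 ± 0.13, adjusted p = 0.121). SLC7A10 had 2.52 to 3.63 against 2.48 to 2.91 CPM (adjusted p = 0.503).

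All 6 light chains had a positive log2 fold change, from 0.021 to 0.29, while that of their heavy chain was -0.011. Of all 16505 genes tested, 8407 were above 0. Only SLC7A6 of the 6 was called, and the estimates of SLC7A5, SLC7A11 and SLC3A2 were smaller than their SE. Summed per kilobase of exon union and divided by SLC3A2, the light chains stood at 3.66 to 3.73 in the treated libraries and 3.44 to 3.58 in the controls. These did not overlap, and the treated libraries were higher. Of single genes tested, 19.5% had all treated levels above the controls, and no such share was measured for ratios. SLC7A8 made up the largest part of the summed ratio, with ratios of 1.80 to 1.84 against 1.71 to 1.74. The ratios are descriptions without a test, and their size depends on the length used, whereas their order between media does not. SLC3A1, the heavy chain that pairs with SLC7A9 in kidney and gut, was at 1.73 to 2.82 CPM against 2.04 to 2.43 CPM (adjusted p = 0.802), and 29.7% of the 31-base words of its transcripts also occur in other annotated genes, so that its counts are uncertain.

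Of the 3 mitochondrial carriers 0 were called by edgeR, and 0 had an unadjusted p under 0.05. DESeq2 also called 0. SLC25A12, an aspartate and glutamate carrier of the malate-aspartate shuttle, had 14.0 to 15.0 CPM in the treated libraries and 15.3 to 16.0 CPM in the controls (log2FC -0.11 ± 0.059, adjusted p = 0.189), without overlap. SLC25A13, its more abundant relative, had 108 to 117 against 111 to 116 CPM (log2FC -0.018 ± 0.035, adjusted p = 0.753). SLC25A22, a glutamate carrier, had 57.4 to 61.5 against 55.6 to 58.5 CPM (log2FC 0.044 ± 0.039, adjusted p = 0.454). Summed over the 3, the level was 180 to 189 CPM in the treated libraries and 185 to 188 CPM in the controls.

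The transporters were set beside 5 lists of the same pathway. Of 36 other amino acid carriers, 28 had enough counts to be tested, and 2 were called higher (7.14%, beside 12.2% of all genes) and 3 lower (10.7%, beside 13.1%). SLC38A2, a sodium-driven neutral carrier that amino acid starvation is known to induce, had a log2 fold change of 0.00095 (456 ± 5.44 CPM in the treated libraries, 455 ± 9.91 CPM in the controls, SD, n = 3, adjusted p = 0.988, edgeR). SLC25A44, a mitochondrial carrier of branched-chain amino acids, was lower (39.6 ± 0.397 against 49.2 ± 2.67 CPM, log2FC -0.31 ± 0.044, adjusted p = 8.47e-05), as were SLC15A3 (-0.32) and, at few counts, SLC17A7 (-0.71). SLC43A3 was higher (29.3 ± 1.26 against 25.1 ± 0.777 CPM, log2FC 0.23 ± 0.050, adjusted p = 0.00379), as was SFXN1, a mitochondrial serine carrier, by 0.090 on the log2 scale (adjusted p = 0.0442). The count of 3 lower fell to 1 without E8 control replicate 3, and the count of 2 higher fell to 1 without E8 control replicate 1 or 2 or PEG and HS replicate 2 or 3.

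Of the 17 genes of the amino acid deprivation response, 4 were called higher (23.5%) and 1 lower (5.88%), beside 12.2% and 13.1% of all genes, and 12 of the 17 had at least 10 CPM, a level at which the background was 17.3% and 15.2%. Its factor ATF4 had a log2 fold change of 0.037 (359 ± 5.27 against 350 ± 8.61 CPM, SD, n = 3, adjusted p = 0.36, edgeR). The 1 lower gene was DDIT4, an inhibitor of mTORC1 that several stresses induce (17.6 ± 0.853 against 30.6 ± 0.97 CPM, log2FC -0.80 ± 0.053, adjusted p = 2.25e-08, edgeR). EIF2AK4, the kinase GCN2 that senses uncharged tRNA, was higher (227 ± 7.62 against 200 ± 4.47 CPM, log2FC 0.18 ± 0.031, adjusted p = 0.000427), and so were CEBPB (0.20) and STC2 (0.18). Without PEG and HS replicate 3, 2 genes of this list were called higher in place of 4.

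Enzymes that make amino acids were called higher in 10 of 22 cases (45.5%) and lower in 3 (13.6%). All 22 had at least 10 CPM, and of the genes at that level 17.3% were called higher and 15.2% lower. ASS1, which joins citrulline and aspartate on the way to arginine, fell most (40.3 ± 1.19 against 63.0 ± 1.35 CPM, SD, n = 3, log2FC -0.64 ± 0.038, adjusted p = 5.61e-09, edgeR), and BCAT2, a mitochondrial branched-chain aminotransferase, was lower as well (-0.23).

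Of the 20 cytosolic aminoacyl-tRNA synthetases, which charge tRNAs with amino acids, 12 were called higher (60.0%) and 2 lower (10.0%), each by little. The shares of all genes tested were 12.2% and 13.1%. IARS1 changed most, with 485 ± 12.6 against 424 ± 3.69 CPM (log2FC 0.20 ± 0.027, adjusted p = 5.33e-05, edgeR), and VARS1 (0.18), AARS1 (0.17) and EPRS1 (0.15) followed. These are well-counted genes, 15 of them with at least 100 CPM, and among the 2229 genes of that level 22.6% were called higher and 17.7% lower. The count of 2 lower fell to 1 without PEG and HS replicate 1 or 2, and to 0 without E8 control replicate 2.

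Of 27 genes found for the sensing of amino acids by mTORC1, 1 was called higher (3.70%) and 6 lower (22.2%), beside 12.2% and 13.1% of all genes, and beside 17.3% and 15.2% of the genes with at least 10 CPM, which 24 of the 27 reached. SESN3, a sestrin and inhibitor of mTORC1, fell most, from 123 ± 4.77 to 54.6 ± 1.57 CPM (log2FC -1.18 ± 0.037, adjusted p = 4.67e-12, edgeR), a larger change than that of any of the 34 transporters. The gene called higher was SESN1 (29.8 ± 0.946 against 26.0 ± 0.665 CPM, log2FC 0.20 ± 0.048, adjusted p = 0.00637, edgeR), and SESN2, of the deprivation list, did not pass (log2FC -0.035 ± 0.045, adjusted p = 0.626). The Rag GTPases RRAGD (-0.43) and RRAGC (-0.26), which hold mTORC1 at the lysosome, and DEPDC5 (-0.23), a subunit of a complex that restrains mTORC1, were lower too. Without PEG and HS replicate 2 or without E8 control replicate 3, 2 genes were called higher in place of 1. The neural markers given above were lower in the same libraries, and their part in these counts was not tested.

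**Figure D4:**
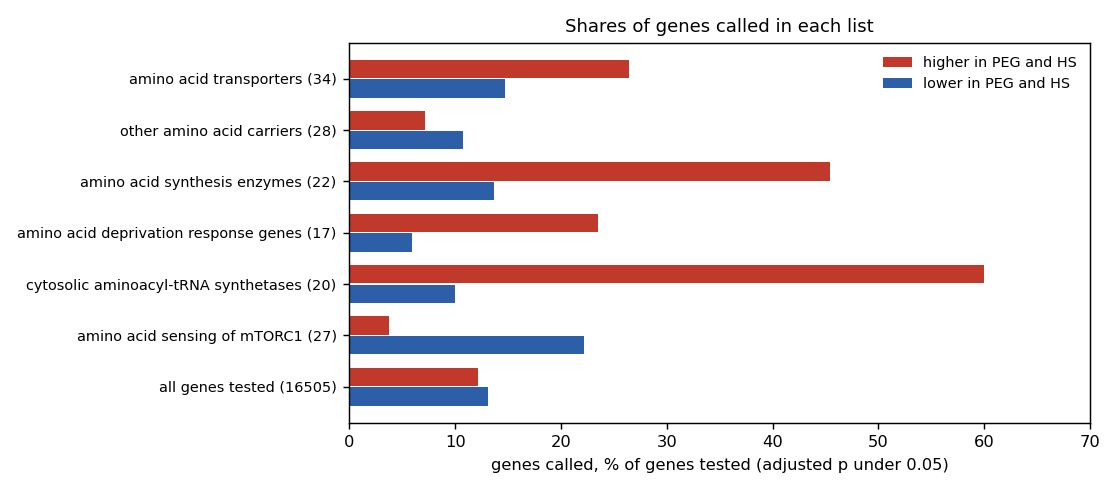
Shares of genes called higher (red) and lower (blue) in PEG and HS, in percent of the genes tested in each list, with the number tested in brackets and all 16505 genes tested at the bottom. The 34 transporters had 26.5% higher and 14.7% lower, the aminoacyl-tRNA synthetases 60.0% higher, and all genes 12.2% higher and 13.1% lower. The bars carry no test of a list.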

How the data were processed

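Gene counts were measured by poly(A) RNA sequencing with a stranded mRNA kit in 6 libraries, 3 of each medium. The authors trimmed reads with Trim Galore (0.6.7), aligned them with STAR (2.6.1) to GRCh38 through nf-core/rnaseq, and deposited raw counts per gene without normalization. The counting tool, its strand setting, the treatment of multimapping reads and the annotation release are not given in the sources used here. From these counts, genes with at least 10 counts over the 6 libraries (16505 of 19977) were tested with edgeR (4.0.16, R 4.3.3, glmQLFit and glmQLFTest, TMM factors 0.994 to 1.006), and p-values were adjusted by Benjamini-Hochberg over all of them, with a threshold of 0.05. SE was taken as the size of the log2FC over the root of the F statistic, and the common biological coefficient of variation was 3.12%. CPM values use TMM-scaled library sizes. Depth was 26991279 to 36185138 counts. Replicates of a medium were not repeats of 1 library, with a chi-square of 2.61 to 3.60 times its degrees of freedom between their counts.

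All 34 members are named, and from each of the 5 other lists the 4 called genes with the largest absolute log2 fold change. Some genes that this rule selects are not reported here. SFXN1, SLC38A2, ATF4, SESN1 and SESN2 were named after their values were seen. Members, lists and markers were chosen with earlier results of these data known. Exon lengths are from GENCODE 44, in which 19916 of the identifiers were found, and lists hold no test of their own. On simulated counts with 200 of 16393 genes changed, edgeR recovered 96.5% of them with 8.10% of its calls false. With 0 changed it made 1 call among 16381 genes. Recovery of differences as small as the median of the transporters called (0.22 in absolute log2 fold change) was not tested. Alternatives were DESeq2 (1.42.0), limma-voom (limma 3.58.1), other scalings, filters and thresholds, a replicate block, and leaving out each library.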

Additional observations from a re-analysis of the deposited data

How the results depend on the processing

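Of the 14 transporters called, 8 kept their call in each of the 15 alternatives that left the threshold as it was (SLC16A10, SLC1A3, SLC36A4, SLC38A5, SLC38A7, SLC6A15, SLC7A1 and SLC7A3). DESeq2 did not call SLC7A2 (adjusted p = 0.052), SLC38A6 (0.0729) or SLC43A2 (0.0915), and called 3398 genes in all. SLC1A5 was not called with upper quartile scaling (0.0799), filterByExpr (0.0535) or a filter of 1 CPM in 3 libraries (0.0531). SLC7A8 was called with library size alone (0.043) and SLC38A3 with the 1 CPM filter (0.0489). Log2 fold changes near 0 turned negative for SLC38A1 with upper quartile scaling (-0.0071), filterByExpr (-0.0028) and the 1 CPM filter (-0.0043), and for SLC36A1 with upper quartile scaling (-0.0041) and the 1 CPM filter (-0.0011). Tested against a 1.5-fold change, 264 genes were called, with 0 transporters higher and 0 lower. In that test the other carriers had 0 higher and 0 lower, the synthesis enzymes 0 and 0, the synthetases 0 and 0, the deprivation response 0 higher, and mTORC1 sensing 0 higher and 1 lower. At an adjusted p under 0.01, 5 transporters were higher, 1 of the other carriers and 2 deprivation genes were higher, and 0 synthetases were lower. The other carriers had 1 higher with DESeq2, upper quartile scaling and each other filter, and mTORC1 sensing had 2 higher with library size alone.

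With each library left out in turn, 5 to 7 transporters were higher and 4 to 7 lower. Over all genes, 3114 to 3674 were then called in place of 4173, with 1453 to 1751 of them higher in place of 2016. The ranges were 1 to 2 higher and 1 to 4 lower for the other carriers, 7 to 9 and 3 to 3 for the synthesis enzymes, 2 to 4 higher and 1 to 1 lower for the deprivation response, 8 to 11 and 0 to 2 for the synthetases, and 1 to 2 and 5 to 7 for mTORC1 sensing. Log2 fold changes changed sign in SLC1A2 (-0.22 to 0.062), SLC1A4 (-0.20 to 0.017), SLC3A1 (-0.081 to 0.24), SLC3A2 (-0.023 to 0.00091), SLC7A11 (-0.035 to 0.11), SLC38A1 (-0.013 to 0.017), SLC36A1 (-0.043 to 0.065) and SLC25A13 (-0.053 to 0.0088). The replicate numbers did not pair the samples, since deviations of same-numbered libraries correlated at 0.0353, -0.0212 and 0.0226 over 11375 genes. None of the libraries correlated best with its own number. With the replicate block 4444 genes were called in place of 4173, 9 transporters were higher and 6 lower, and SLC6A9 was the transporter gained (adjusted p = 0.0316). The cause of these changes was not tested. With 3 libraries a medium from what may be 1 vessel each, the spread between vessels was not measured.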
